A study of Mus musculus with 36 samples.

Results

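Livers of W/F mice that had received a steatohepatitis-promoting diet and the liver X receptor (LXR) agonist T0901317 were compared with livers of W/F mice kept on normal chow, to see how closely treated livers resemble the chow state. W/F mice carry 1 LXRalpha allele in which CRISPR editing replaced tryptophan (W) 441 with phenylalanine (F), and every W/F group here, chow included, carries it. The series text gives Nr1h2 as the symbol of LXRalpha, whereas the usual symbol is Nr1h3, so both genes are reported. All mice were males of 11 to 12 weeks. Treated mice ate the MASH diet (metabolic dysfunction-associated steatohepatitis; Teklad TD.96121, high in fat and cholesterol) for 4 weeks and were given T0901317 daily by oral gavage at 10 mg/kg over the last 2 weeks. Chow mice came from an independent cohort for which no gavage is described, so the diet, the compound, the gavage and the cohort cannot be told apart in this comparison. The comparison holds 8 of the 36 libraries of the series, chosen by the genotype and treatment labels, with 4 libraries in each group, and 16638 of 49315 listed genes were expressed enough to be tested. W/F mice on the same diet that were gavaged with vehicle (4 libraries) are set beside it, and so are T0901317-treated and chow livers of unmutated W/W and homozygous F/F mice (4 libraries in each group). The number of founder lines and whether each library is 1 mouse are not given in the sources used here, so the p-values measure the spread between these libraries, which may in part be technical.

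LXRs are nuclear receptors that bind oxidised cholesterol derivatives and switch on genes for cholesterol efflux, such as the ABC transporters, and for fatty acid synthesis, chiefly through Srebf1. Cholesterol synthesis and uptake are run by the related factor SREBP2, which is held in the endoplasmic reticulum when sterols are plentiful. Steatohepatitis combines hepatocyte fat storage with recruited macrophages, inflammatory signalling and collagen deposition. T0901317 is a synthetic agonist of both LXRs and is also known to activate the xenobiotic receptor PXR.

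PolyA RNA of whole liver was measured, and values are TPM (transcripts per 1000000 transcripts), which compare levels per unit of transcript length. Sequencing depth recovered from the smallest values was 20.7 to 21.8 × 1000000 reads in the chow libraries and 22.6 to 25.9 × 1000000 in the treated libraries, without overlap (exact permutation test, two-sided, p = 0.0286, the smallest that 4 against 4 allows). Whether this depth difference bears on any gene was not tested. The number of genes at 1 TPM or more did not differ beyond the spread (12661 ± 465 treated and 12670 ± 94.9 chow, SD, n = 4 each; exact permutation p = 0.943), nor did the share of TPM held by the 100 most abundant genes (54.3% ± 2.86 and 54.3% ± 1.08; exact permutation p = 1) or by mitochondrial genes (11.4% ± 1.43 and 11.5% ± 1.41; exact permutation p = 0.971). The 9 hepatocyte markers summed to 85667 to 121380 TPM in chow and 79571 to 109810 TPM in treated livers, in keeping with the labelled tissue. Replicate 2 of the treated group stood apart from the other treated libraries. Its correlation with them across genes was 0.962 to 0.968, against 0.983 to 0.986 among the other treated libraries, and it was the highest treated library, beyond a 95% outlier limit, for 762 genes. Treated replicate 1 was set apart by the same limit for 539 genes, in 97 of them as the highest library and in the others as the lowest, and without it the 3106 genes called lower below became 2305. List counts that move by over 1.5 times without treated replicate 2 are given with and without it, and other libraries are named where a count moves as far without them. Nr1h3 itself was at 81.3, 87.4, 102 and 109.7 TPM in the chow libraries and at 82.0, 106, 104 and 92.5 TPM in the treated ones, a log2 difference of 0.02 ± 0.10 (SE; limma adjusted p = 0.939). The ranges overlapped. Nr1h2 differed by 0.13 ± 0.10 (SE; limma adjusted p = 0.378) as deposited, and by 0.23 (limma adjusted p = 0.018) after rescaling the libraries to a common median ratio. The transcript level of either gene does not check a codon change.

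Treated W/F livers lay closer to chow than vehicle-treated W/F livers did, yet outside the spread of the chow libraries. As a distance, the root mean square of log2(TPM + 1) differences over the 16638 genes was taken between each library and the mean of the chow libraries, leaving the library itself out for chow. It was 0.352 to 0.441 for the chow libraries, 0.631, 0.771, 0.536 and 0.524 for treated replicates 1 to 4, and 1.04 to 1.12 for the vehicle libraries. All 4 treated libraries were thus farther from chow than any chow library, and none was as far as a vehicle library. The same treated distance was 0.521 to 0.653 in W/W and 0.598 to 0.695 in F/F mice, each measured from chow livers of its own genotype, and the vehicle distance was 0.423 to 0.549 in W/W and 0.803 to 0.859 in F/F mice. After rescaling each library to a common median ratio, the distances were 0.367 to 0.457 for W/F chow, 0.545 to 0.785 for W/F treated and 0.942 to 0.994 for W/F vehicle libraries, in the same order.

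**Figure D1:**
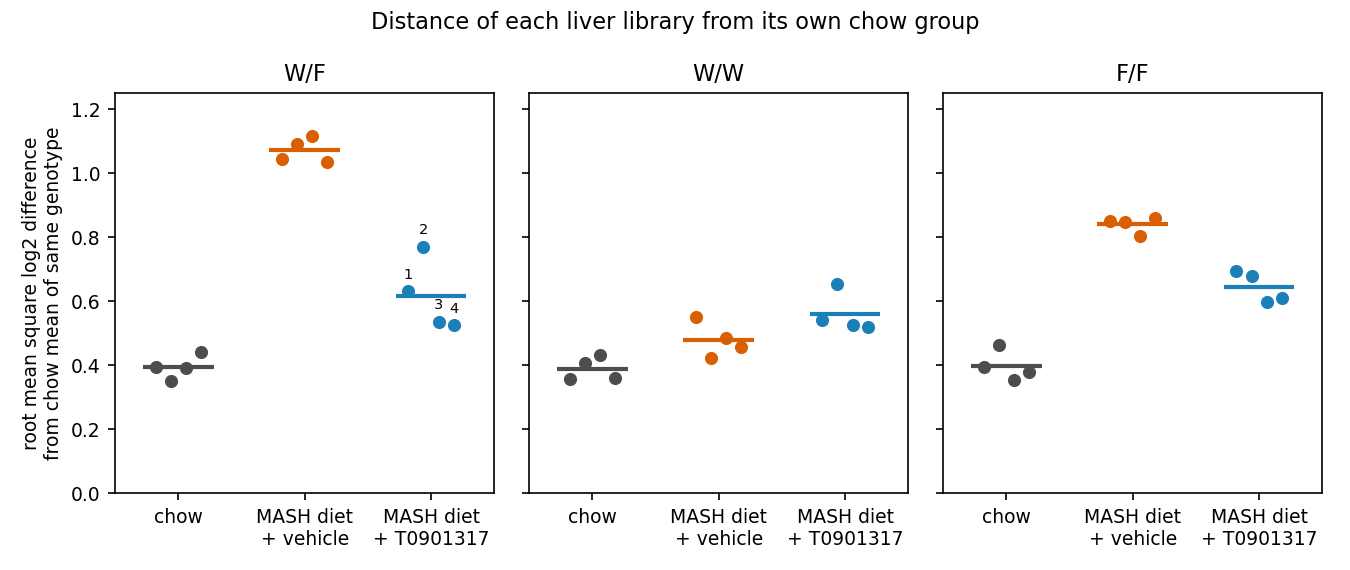
Root mean square log2(TPM + 1) distance of each library from the chow mean of its own genotype (vertical axis, log2 units), for chow, vehicle and T0901317 libraries of W/W, W/F and F/F mice. Each point is a library and each bar a group mean of 4. W/F treated libraries (mean 0.615) sit between the W/F chow libraries (mean 0.395) and the W/F vehicle libraries (mean 1.07), and the highest W/F treated point is replicate 2 at 0.771.

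Of the 16638 genes, 4939 (29.7%) passed limma's test at an adjusted p under 0.05, 1833 higher (11.0%) and 3106 lower (18.7%) in treated livers. At least a 2-fold change was found for 761 genes (4.57%), 371 of them higher (2.23%) and 390 lower (2.34%). The median log2 difference over all genes was −0.0051. Rescaling the libraries to a common median ratio moved that median to 0.059 and gave 3303 higher (19.9%) and 2889 lower (17.4%) genes, a higher share of 53.3% of the calls against 37.1% as deposited, so the balance of higher and lower calls depends on the scaling. All 1833 genes called higher as deposited were also called higher after rescaling, as were 2811 of the 3106 called lower, and 0 genes were called in opposite directions. Leaving out treated replicate 2 lowered the number of higher genes to 1138 (6.84%) and left 2980 lower (17.9%). The 4 treated and 4 chow libraries did not overlap at all for 4497 genes (27.0%), and 3833 genes (23.0%) both passed the test and did not overlap. For 13044 genes (78.4%) the 95% interval of the difference lay within 2-fold either way on the log2 scale of the test. That scale adds an offset to TPM and understates changes of low genes, so a larger TPM change of such genes is not excluded. Vehicle-treated W/F livers, compared with the same chow libraries, gave 10145 called genes (61.0%), with 8725 higher (52.4%) and 1420 lower (8.53%), and 9920 genes (59.6%) with such an interval. Their median log2 difference was 0.39 as deposited and 0.0037 after rescaling, which gave 4665 higher and 4453 lower genes, so vehicle values below are to be read against a median of 0.39. As bulk liver was measured, a change in the number of cells of a type and a change in RNA per cell cannot be told apart in these or the following values.

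**Figure D2:**
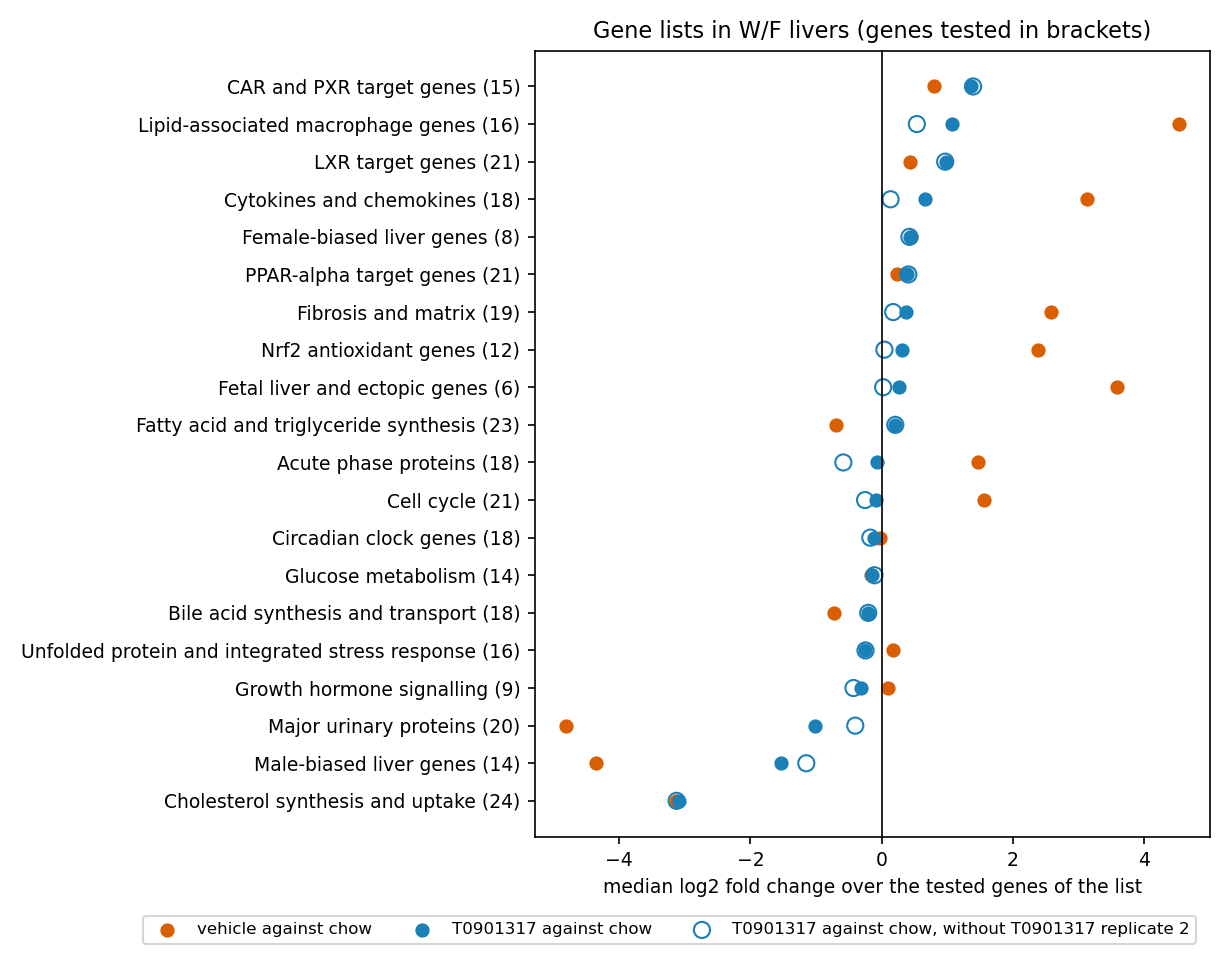
Median log2(TPM + 1) difference from chow of each gene list (horizontal axis, log2 units), for W/F T0901317 livers, for W/F T0901317 livers without replicate 2 and for W/F vehicle livers, which share the chow libraries with them. The cholesterol list has a median of −3.08 in treated and −3.14 in vehicle livers, whereas the lipid-associated macrophage list is at 1.08 in treated livers, 0.54 without replicate 2, and 4.53 in vehicle livers.

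Genes of cholesterol synthesis and uptake lay furthest below chow: the 10 deepest falls by the naming rule were 9 of these genes and a small RNA gene inside Fdps. All 24 tested genes of this list fell (0 higher, 24 lower, against 18.7% of all genes lower), with a median log2 difference of −3.08 and no overlap between treated and chow libraries for any of the 24 (27.0% over all genes). Their summed level was 4758 to 6316 TPM in the chow libraries, 755 to 812 TPM in the treated ones and 667 to 733 TPM in the vehicle ones. Vehicle livers also had all 24 genes lower than chow (8.53% of all genes), with a median of −3.14. Both comparisons use the same chow libraries, so their values are set side by side and no more.

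Because these genes moved together, promoters of 4 of them are shown, with the CCAAT box, the element bound by the factor NF-Y that works beside SREBPs at sterol genes, in capitals (CCAAT, or ATTGG where it lies on the other strand). They are the tested members with 1 window in the RefSeq table and no annotated exon within it, from the deep falls of Hmgcs1 (−4.86 on the log2 scale) and Mvd (−4.22) to the smaller ones of Sc5d (−1.87) and Ebp (−0.62), both late enzymes of the pathway. The windows are the 250 bases before the RefSeq start site, 5′ to 3′ on the strand of the gene, in GRCm38.p6, at chr13:119690101-119690350 (plus strand) for Hmgcs1, chr8:122443423-122443672 (minus strand) for Mvd, chr9:42264301-42264550 (minus strand) for Sc5d and chrX:8193513-8193762 (minus strand) for Ebp.
Hmgcs1: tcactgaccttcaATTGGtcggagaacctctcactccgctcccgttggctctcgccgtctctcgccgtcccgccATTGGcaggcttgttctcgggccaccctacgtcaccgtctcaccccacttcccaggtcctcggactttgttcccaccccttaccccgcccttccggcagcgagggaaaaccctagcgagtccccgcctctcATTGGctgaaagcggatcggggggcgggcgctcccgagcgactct
Mvd: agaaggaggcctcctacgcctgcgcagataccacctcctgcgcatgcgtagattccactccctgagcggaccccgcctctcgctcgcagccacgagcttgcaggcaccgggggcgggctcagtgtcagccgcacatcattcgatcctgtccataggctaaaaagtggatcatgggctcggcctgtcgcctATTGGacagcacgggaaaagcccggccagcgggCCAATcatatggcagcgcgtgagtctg
Sc5d: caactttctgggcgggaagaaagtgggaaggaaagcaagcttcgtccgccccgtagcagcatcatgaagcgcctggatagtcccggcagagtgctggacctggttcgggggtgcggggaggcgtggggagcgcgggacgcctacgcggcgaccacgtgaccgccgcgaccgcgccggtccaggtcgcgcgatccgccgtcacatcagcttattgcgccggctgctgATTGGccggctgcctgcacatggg
Ebp: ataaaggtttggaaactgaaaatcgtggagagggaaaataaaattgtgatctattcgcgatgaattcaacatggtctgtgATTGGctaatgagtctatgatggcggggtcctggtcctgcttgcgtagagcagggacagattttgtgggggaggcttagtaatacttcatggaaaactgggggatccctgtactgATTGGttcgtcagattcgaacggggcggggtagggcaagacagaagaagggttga
The windows hold 3, 2, 1 and 2 such boxes in this order. Over the list, 17 of 20 windows held CCAAT on either strand (85.0%), as did at least 1 window of each of the 17 genes with an entry (Npc1l1, which was not tested, among them), against 33.8% of 32851 windows of all genes and 47.6% of 21 windows of the LXR target list. The letters TCACNCCA, a core of the sterol regulatory element, were found on either strand in 3 of 20 windows (15%; Hmgcs1, Msmo1 and Srebf2), against 3.67% of all windows. The end of that core can also begin a CCAAT box, and such overlaps were not separated. A match describes these letters only and does not show binding.

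Enzymes on the path from acetyl-CoA to lanosterol fell in every treated library. Idi1, which interconverts the isoprenyl diphosphates (chr13:8885501-8892451, plus strand in GRCm38), was at 180.5, 224, 225 and 218 TPM in the chow libraries and at 0.959, 1.09, 1.02 and 1.79 TPM in the treated libraries. Every treated library was far below every chow library, with a log2 difference of −6.60 ± 0.23 (SE; limma adjusted p = 7.08e-20) and a vehicle mean of 1.21 ± 0.414 TPM (SD, n = 4). About 17.7% of its transcript sequence is shared with other genes, so its level is somewhat uncertain. Sqle, the squalene epoxidase (chr15:59315077-59331192, plus strand), was at 116, 125, 145 and 163 TPM in chow and at 1.52, 1.68, 1.52 and 2.02 TPM in treated livers, a difference of −5.68 ± 0.17 (SE; limma adjusted p = 2.08e-21). Hmgcs1, which makes HMG-CoA, went from 1075, 1318, 1566 and 1075 TPM to 38.5, 38.1, 43.7 and 48.2 TPM, a difference of −4.86 ± 0.21 (SE; limma adjusted p = 2.14e-17). Of the other early enzymes, Mvd fell by 4.22 and Fdps by 4.54 on the log2 scale. Fdps shares 26.2% of its sequence with other genes and contains the small nuclear RNA gene Gm22935 (−4.32), which overlaps no annotated exon of Fdps. Whether reads counted for Gm22935 come from the Fdps transcript was not tested. The groups overlapped for none of these genes, and the treated libraries were close to each other except that Mvd in treated replicate 2 (2.52, 6.16, 2.39 and 2.81 TPM in replicates 1 to 4) was above the other 3.

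The later, sterol-modifying enzymes fell too. Cyp51, the lanosterol demethylase (chr5:4081145-4104746, minus strand), was at 337, 420.5, 374 and 333 TPM in chow and at 7.57, 5.94, 10.6 and 10.7 TPM in treated livers, a difference of −5.27 ± 0.22 (SE; limma adjusted p = 8.6e-18). Msmo1 and Nsdhl, which remove the methyl groups next, differed by −4.81 and −4.65. Sc5d, the lathosterol desaturase, was at 372, 480.0, 539.8 and 352 TPM in chow and at 107, 113, 119 and 128 TPM in treated livers (−1.87 ± 0.15, SE; limma adjusted p = 4.83e-11). Ebp, the sterol isomerase, changed least of the genes named here, from 189.7, 198, 212 and 187 TPM to 135, 121, 128 and 124 TPM (−0.62 ± 0.08, SE; limma adjusted p = 4.27e-07). Insig1, which holds SREBPs in the endoplasmic reticulum, differed by −2.61. The falls thus ranged widely in size, and no treated library reached the chow range for any of these genes.

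**Figure D3:**
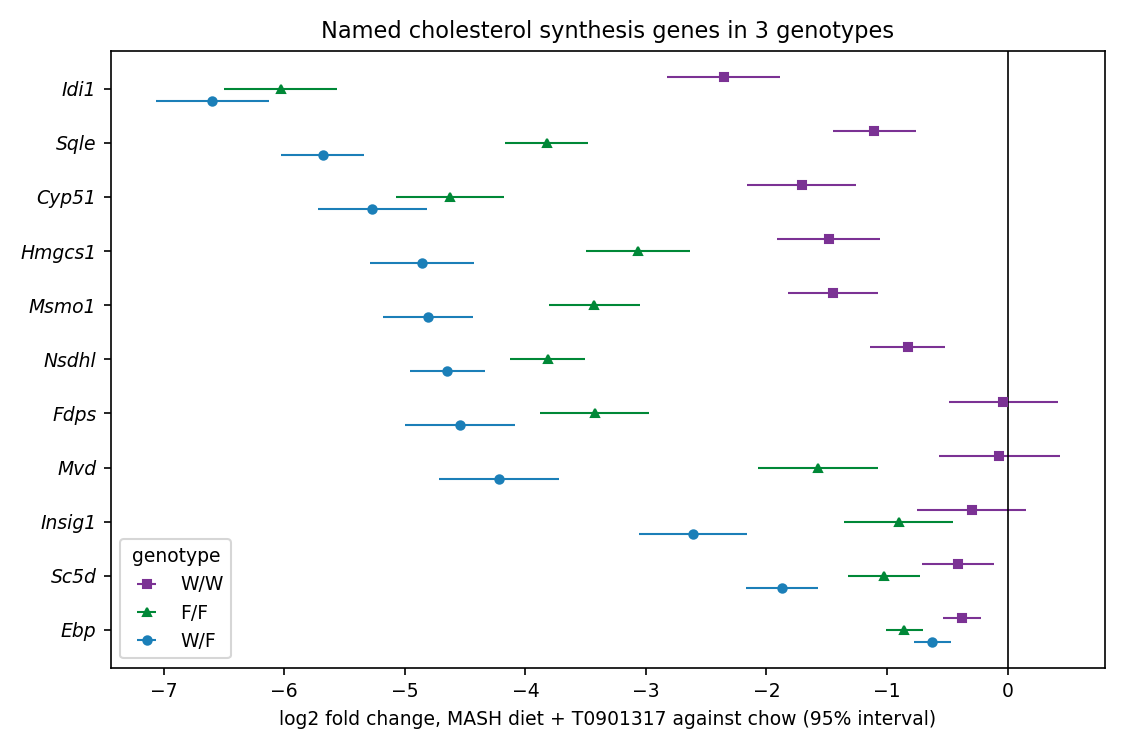
Log2(TPM + 1) difference between T0901317 and chow livers (horizontal axis, log2 units) of the cholesterol synthesis genes named in the text, in W/W, W/F and F/F mice. Points are the fitted differences and bars their 95% intervals, and the W/F points reach from −6.60 for Idi1 to −0.62 for Ebp.

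LXR target genes were higher in treated than in chow livers. Of the 21 tested, 15 rose, 0 fell and 6 did not pass (background 11.0% higher), with a median log2 difference of 0.98, and 15 did not overlap between the groups (27.0% over all genes). In vehicle livers, which had no agonist, 12 were higher and 3 lower than the same chow libraries (52.4% and 8.53% over all genes), with a median of 0.43. Scd1, the stearoyl-CoA desaturase that makes monounsaturated fatty acids (chr19:44394455-44407879, minus strand), had the largest fitted rise of the genes named by size, from 30.0, 63.5, 37.8 and 21.8 TPM in chow to 2253, 1810.0, 1704 and 1834 TPM in treated livers (5.70 ± 0.30, SE; limma adjusted p = 2.12e-15). The lowest treated library was above the highest chow library by a wide margin, and the vehicle libraries were at 322 to 616 TPM. Srebf1, the lipogenic SREBP gene (chr11:60199089-60222581, minus strand), rose from 67.1, 45.4, 52.9 and 33.0 TPM to 469.5, 341, 360.3 and 413 TPM (3.01 ± 0.22, SE; limma adjusted p = 7.13e-12), while the vehicle libraries, at 49.9 to 80.6 TPM, lay near the chow range. Mir6921, a microRNA gene within Srebf1, was listed at 0, 2.95, 0 and 0 TPM in chow and 16.6, 15.1, 20.3 and 11.9 TPM in treated livers (3.57). It overlaps no annotated exon of Srebf1, and whether its reads come from the Srebf1 transcript was not tested.

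The cholesterol transporters rose by different amounts. Abcg5 and Abcg8, whose products export sterols into bile as a pair, were at 104, 107, 72.7 and 53.9 and 93.1, 106, 63.8 and 41.9 TPM in the chow libraries. In the treated libraries they were at 181, 226, 226 and 270.4 and 131, 169, 176 and 244 TPM, differences of 1.45 ± 0.23 (SE; limma adjusted p = 2.71e-05) and 1.28 ± 0.27 (SE; limma adjusted p = 0.000673). Both were above chow in all 4 treated libraries, and as the annotated exons of the 2 genes overlap, reads there could be counted for either. Abca1, which loads cholesterol onto apolipoprotein A-I, rose slightly, from 27.0, 26.1, 30.4 and 32.7 TPM to 35.8, 47.6, 38.6 and 47.0 TPM (0.52 ± 0.15, SE; limma adjusted p = 0.00904). Abcg1, an efflux gene that macrophages also express, rose from 1.15, 1.59, 1.82 and 1.92 TPM to 9.27, 31.8, 12.8 and 12.5 TPM (2.60 ± 0.24, SE; limma adjusted p = 1.51e-09), and Lpl, the lipase that macrophages and fat cells make, rose from 1.62, 1.46, 2.32 and 1.99 TPM to 8.99, 30.2, 10.1 and 12.9 TPM (2.39 ± 0.30, SE; limma adjusted p = 7.91e-07). Replicate 2 was the highest treated library for both, and without it the differences were 2.25 and 2.03. The vehicle means of both were higher still, 39.1 ± 8.58 TPM (SD, n = 4) for Abcg1 and 119.5 ± 22.1 TPM (SD, n = 4) for Lpl. Lpcat3, which remodels phospholipids, and Mylip, a ubiquitin ligase gene, also rose (1.08 and 1.26).

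Fatty acid and triglyceride synthesis divided by gene. Of 23 genes, 9 rose, 6 fell and 8 did not pass (11.0% higher and 18.7% lower over all genes), with a median log2 difference of 0.21. In vehicle livers 4 were higher and 13 lower than the same chow libraries (52.4% and 8.53% over all genes), with a median of −0.70. The summed level of the list was 2072 to 3008 TPM in chow and 4682 to 6411 TPM in treated livers, without overlap. Scd1 is among the 5 genes of this list that also stand in another list. Its rise, given above, makes up a large part of the gap between these sums. The sums thus do not show that the list as a whole rose. Fasn, the fatty acid synthase, was at 91.4, 56.4, 80.1 and 54.1 TPM in chow and at 94.7, 54.0, 53.5 and 59.3 TPM in treated livers (−0.11 ± 0.41, SE; limma adjusted p = 0.876). The ranges overlapped, and the vehicle libraries were lower, at 11.1 to 28.8 TPM. Thrsp, a lipogenic regulator, rose from 401, 168, 98.0 and 74.3 TPM to 1433, 659, 475 and 677 TPM (2.31 ± 0.67, SE; limma adjusted p = 0.00886), and Pnpla3, a lipid-droplet protein gene, rose by 1.39. Enzymes that supply acetyl-CoA fell: Acly, the citrate lyase, went from 173, 133, 162 and 135 TPM to 49.0, 40.4, 42.0 and 51.0 TPM (−1.70), and Acss2, the acetyl-CoA synthetase, differed by −1.91. Gpam, the first acyltransferase of glycerolipid synthesis, fell from 68.0, 68.4, 88.9 and 64.5 TPM to 8.38, 16.2, 16.2 and 16.9 TPM (−2.29 ± 0.31, SE; limma adjusted p = 2.01e-06). Of the acetyl-CoA carboxylases, Acaca differed by −0.58, limma adjusted p = 0.0139, but did not pass without treated replicate 2 (−0.48, limma adjusted p = 0.064), and Acacb did not pass (−0.40, limma adjusted p = 0.297). Acaca shares 30.4% of its sequence with other genes.

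**Figure D4:**
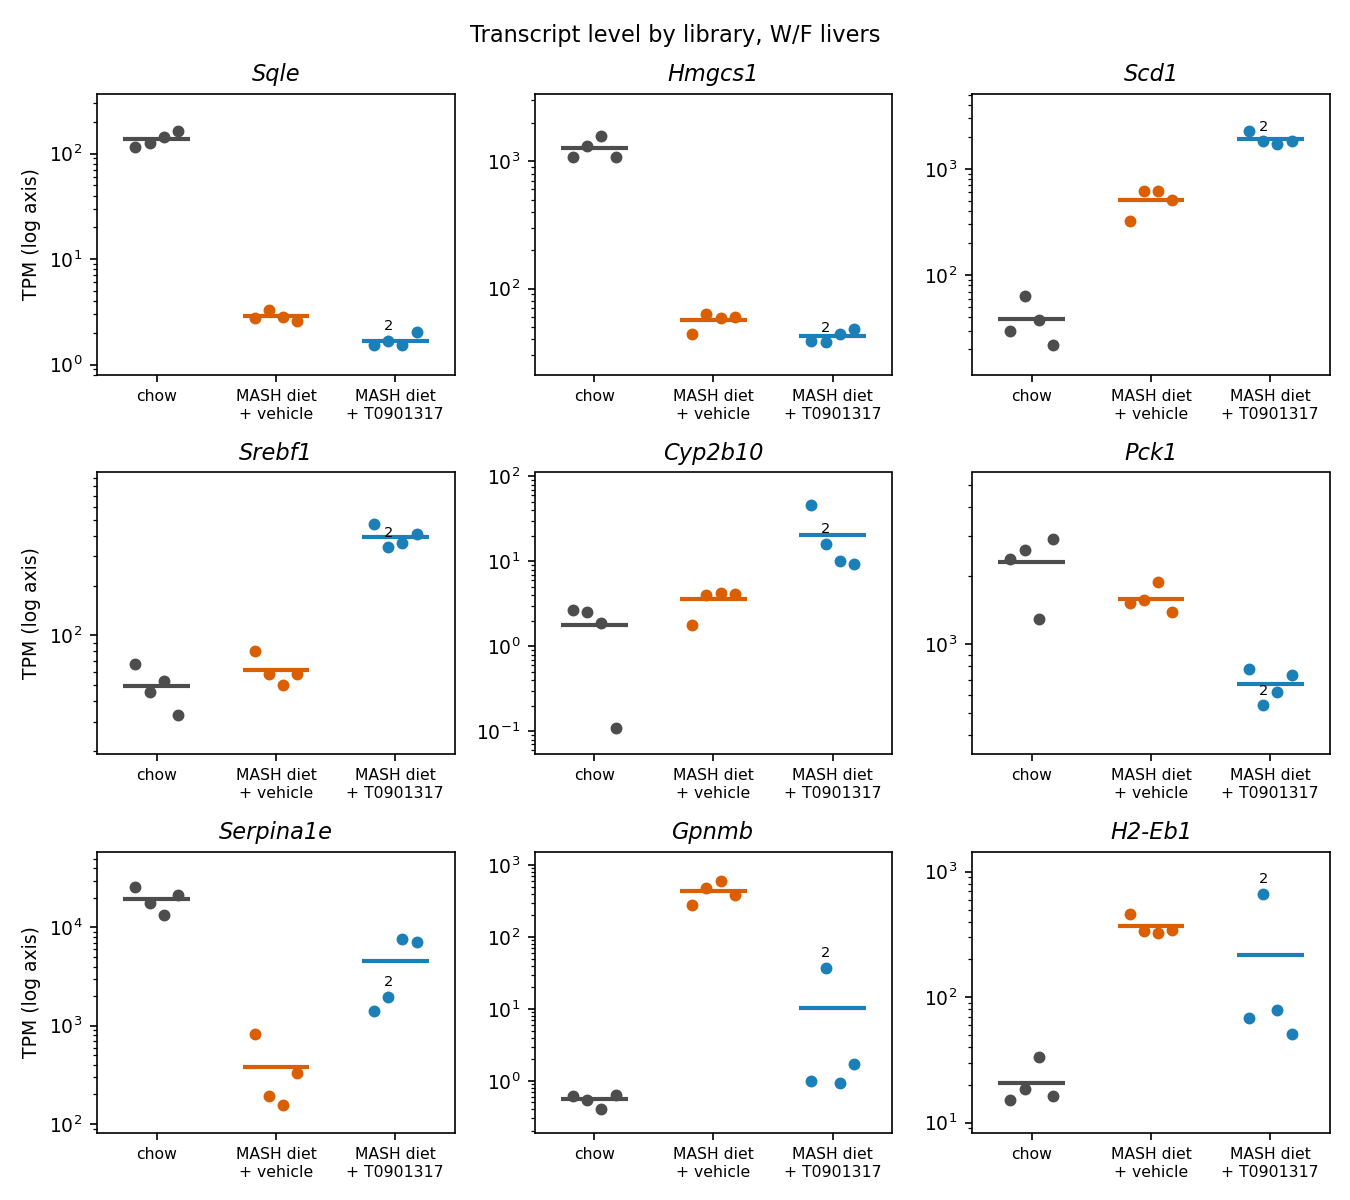
TPM of Sqle, Hmgcs1, Scd1, Srebf1, Cyp2b10, Pck1, Serpina1e, Gpnmb and H2-Eb1 in each W/F library (log axes), for chow, vehicle and T0901317 livers, each point a library and each bar a group mean of 4. Scd1 lies at 21.8 to 63.5 TPM in chow and 1704 to 2253 TPM in treated livers, Sqle is at 1.52 to 2.02 TPM in treated livers, and treated replicate 2, marked 2, stands at 37.7 TPM of Gpnmb against 0.931 to 1.74 TPM in the other 3 treated libraries.

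Target genes of other nuclear receptors rose in part. Each list count against chow here and below is to be read beside the share over all genes. For treated livers as deposited that share was 11.0% higher and 18.7% lower, or 6.84% and 17.9% without treated replicate 2. For vehicle livers it was 52.4% higher and 8.53% lower, and for treated livers after rescaling 19.9% and 17.4%. Of 21 PPAR-alpha target genes, which serve fatty acid oxidation in the fasted liver, 12 rose, 0 fell and 9 did not pass (median 0.38). Cyp4a10, a fatty acid hydroxylase (chr4:115518264-115533649, plus strand), rose from 6.82, 99.2, 62.4 and 9.34 TPM to 436, 162, 354 and 209 TPM (3.33 ± 0.67, SE; limma adjusted p = 0.000339). The chow libraries themselves ranged widely, and 29.8% of the sequence is shared with other genes. Acaa1b, a peroxisomal thiolase, rose from 353, 739, 767 and 243 TPM to 2552, 1706, 2453 and 2292 TPM (2.24 ± 0.33, SE; limma adjusted p = 6.43e-06). Cidec, a lipid-droplet protein, Acot1, an acyl-CoA thioesterase, and Vnn1, a pantetheinase, rose by 2.01, 1.98 and 1.79, whereas the fasting hormone Fgf21 differed by 0.25, limma adjusted p = 0.667, and did not pass.

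Of 15 CAR and PXR target genes, which serve drug metabolism, 10 rose, 1 fell and 4 did not pass, with a median log2 difference of 1.36. The 1 that fell did not pass without treated replicate 1, 3 or 4 or chow replicate 2, 3 or 4. In vehicle livers 8 of the 15 were higher and 4 lower than the same chow libraries, with a median of 0.80. Cyp2b10, the usual marker of CAR activity, rose from 2.67, 2.51, 1.87 and 0.110 TPM to 45.8, 16.1, 10.0 and 9.23 TPM (2.78 ± 0.56, SE; limma adjusted p = 0.000383), and the vehicle libraries were at 1.77 to 4.29 TPM. Por, the reductase that supplies cytochrome P450s with electrons, rose from 193, 181, 107 and 142 TPM to 721, 883, 625 and 877 TPM (2.33 ± 0.22, SE; limma adjusted p = 3.76e-09). Alas1, the first enzyme of haem synthesis, rose from 227, 369, 115 and 266 TPM to 1057, 1059.9, 836 and 974 TPM (2.11 ± 0.35, SE; limma adjusted p = 3.69e-05). No treated library overlapped with chow for these 3 genes. Cyp3a11, the usual marker of PXR activity, was at 653, 3490.5, 4056 and 2519 TPM in chow, where replicate 1 was low, and at 6791, 6443, 7582 and 7304 TPM in treated livers (1.67 ± 0.47, SE; limma adjusted p = 0.00768). The glutathione transferases Gsta1 and Gm3776 differed by 2.86 and 2.92, with 90.5% and 92.5% of their sequence shared with other genes, so the division of reads between them is uncertain.

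Counts of bile acid and glucose genes were near those over all genes or depended on single libraries. Of 18 genes of bile acid synthesis and transport, 2 rose, 7 fell and 9 did not pass (median −0.21). After rescaling, 3 rose and 4 fell, and 3 fell without treated replicate 1 and 4 without treated replicate 2 or chow replicate 1, 2 or 3. The rises became 1 without treated replicate 4 or chow replicate 4. Cyp7a1, the rate-limiting enzyme of bile acid synthesis, was at 125, 76.5, 54.3 and 44.9 TPM in chow and 80.3, 209, 93.8 and 126 TPM in treated livers, which overlapped (0.76 ± 0.45, SE; limma adjusted p = 0.207). Cyp7b1, of the alternative pathway, fell from 683, 437, 469 and 959 TPM to 114, 85.9, 237 and 228 TPM (−1.99 ± 0.54, SE; limma adjusted p = 0.0053), and Abcb11, the bile salt export pump, differed by −0.89, limma adjusted p = 0.00319. Cyp2c70, which makes muricholic acids, rose by 1.09. Of 14 glucose genes, 1 rose, 4 fell and 9 did not pass, and 3 rose and 3 fell after rescaling. The rises became 2 without chow replicate 1. Pck1, the gluconeogenic carboxykinase, fell from 2365, 2608, 1297 and 2910.3 TPM to 776, 539, 617 and 737 TPM (−1.73 ± 0.25, SE; limma adjusted p = 4.57e-06), and Tat, the tyrosine aminotransferase, fell from 2137, 1517, 1059.7 and 2643 TPM to 469, 485, 404 and 565 TPM (−1.86 ± 0.26, SE; limma adjusted p = 3.54e-06). For both the groups did not overlap. The vehicle libraries had 1389 to 1882 TPM of Pck1.

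Male-biased liver genes, which depend on pulses of growth hormone, were in part below chow and varied among the treated livers. Of 14 such genes, 10 fell, 1 rose and 3 did not pass, with a median log2 difference of −1.54. Without treated replicate 2, 7 fell and 1 rose, with a median of −1.15, and 0 rose without treated replicate 1, 3 or 4 or chow replicate 1, 2 or 3. In vehicle livers 13 of the 14 were below the same chow libraries, with a median of −4.35. Selenbp2, a selenium-binding protein, fell from 2002, 1388, 1016 and 1574 TPM to 72.8, 104, 457 and 418 TPM (−2.89 ± 0.66, SE; limma adjusted p = 0.00128). Serpina1e, a protease inhibitor of the alpha-1-antitrypsin family, fell from 25500, 17668, 13260 and 21375 TPM to 1424, 1975, 7655 and 7138 TPM (−2.42 ± 0.57, SE; limma adjusted p = 0.00177). For both, replicates 1 and 2 were the lowest treated libraries and replicates 3 and 4 the nearest to chow, and 43.9% and 34.6% of their sequence is shared with other genes. Hsd3b5, a male-specific steroid enzyme, showed the same division, with 486, 496, 391 and 329.9 TPM in chow and 30.7, 5.59, 234 and 235 TPM in treated livers (−2.85 ± 0.90, SE; limma adjusted p = 0.0161), and did not pass without treated replicate 2 (limma adjusted p = 0.121).

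The major urinary proteins, secreted pheromone carriers of the male liver, varied widely among the treated livers. Of 20, 2 fell and 18 did not pass (median −1.01), and without treated replicate 2 the median was −0.40 and 1 fell. The count lower was 9 without treated replicate 3, 7 without treated replicate 4, and 1 without treated replicate 1 or chow replicate 1, 3 or 4, whereas 18 of 20 were lower in vehicle livers (median −4.82). Their summed level was 41092 to 59073 TPM in chow, 25060, 12824, 43899 and 39335 TPM in treated replicates 1 to 4, and 6483 to 18446 TPM in vehicle livers. Treated replicate 2 had the lowest sum of the treated libraries and replicates 3 and 4 lay inside or next to the chow range. Mup7 was at 6368, 3712, 4301 and 6294 TPM in chow and 305, 52.9, 3835 and 2978 TPM in treated livers (−2.93 ± 1.05, SE; limma adjusted p = 0.0339), but did not pass without replicate 2 (−1.73, limma adjusted p = 0.219). Mup21 fell from 1889, 1089, 2326 and 3998 TPM to 358, 213, 876 and 689 TPM (−2.17 ± 0.54, SE; limma adjusted p = 0.00282), with no overlap. Mup7 shares 86.7% of its sequence with other genes, so single members are uncertain. Of 9 growth hormone signalling genes, 2 rose and 4 fell: Cish, an inhibitor induced by growth hormone, rose (2.11, limma adjusted p = 0.0175) from 1.03, 11.0, 1.06 and 1.63 TPM, with chow replicate 2 high and overlapping, to 13.3, 10.1, 22.2 and 11.4 TPM, and Bcl6, a repressor in the same pathway, fell from 24.4, 12.6, 32.9 and 21.2 TPM to 2.43, 3.08, 5.43 and 4.36 TPM (−2.27 ± 0.50, SE; limma adjusted p = 0.000867). The 2 rises became 0 without treated replicate 3 or chow replicate 1 or 3, and 1 without treated replicate 1 or 4 or chow replicate 4. Of 8 female-biased genes, 3 rose and 0 fell, among them Cyp2a4 (1.33, limma adjusted p = 0.0448), and 1 rose without chow replicate 1.

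Macrophage genes were nearer to chow by their sums than in vehicle livers, and treated replicate 2 was far above the other 3. Whether most of them were called above chow depended on that library. Of the lipid-associated macrophage list, 9 genes also stand in another list, such as Plin2 among the PPAR-alpha targets, so its sum is not particular to macrophages. Of 16 lipid-associated macrophage genes, 12 rose and 0 fell (median 1.08). Without treated replicate 2, 7 rose and the median was 0.54. The summed level was 385 to 411 TPM in chow, 456, 1118, 449 and 451 TPM in treated replicates 1 to 4, and 4449 to 4927 TPM in vehicle livers, where all 16 were above chow. Gpnmb, a glycoprotein of lipid-laden macrophages, was at 0.607, 0.543, 0.409 and 0.644 TPM in chow and 1.00, 37.7, 0.931 and 1.74 TPM in treated livers (1.54 ± 0.53, SE; limma adjusted p = 0.0277), and did not pass without replicate 2 (limma adjusted p = 0.223). Trem2, a lipid-sensing receptor of these cells, was at 0.315, 0.214, 0.0937 and 0.283 TPM and 1.02, 5.89, 1.12 and 0.980 TPM (1.18 ± 0.27, SE; limma adjusted p = 0.00123), and was above chow in all 4 treated libraries. Lgals3, a galectin, was at 2.19, 1.84, 2.18 and 3.51 TPM and 6.57, 81.9, 7.75 and 5.53 TPM (2.03 ± 0.46, SE; limma adjusted p = 0.00118), and Cd63, a lysosomal tetraspanin, at 14.1, 15, 12.4 and 11.5 TPM and 34.7, 173, 33.0 and 43.0 TPM (1.96 ± 0.34, SE; limma adjusted p = 6.69e-05). These 3 genes passed without replicate 2 as well, with differences of 0.74, 1.16 and 1.41. Their vehicle means were 42.4 ± 5.69 TPM (SD, n = 4), 361 ± 54.0 TPM (SD, n = 4) and 985 ± 63.2 TPM (SD, n = 4).

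**Figure D5:**
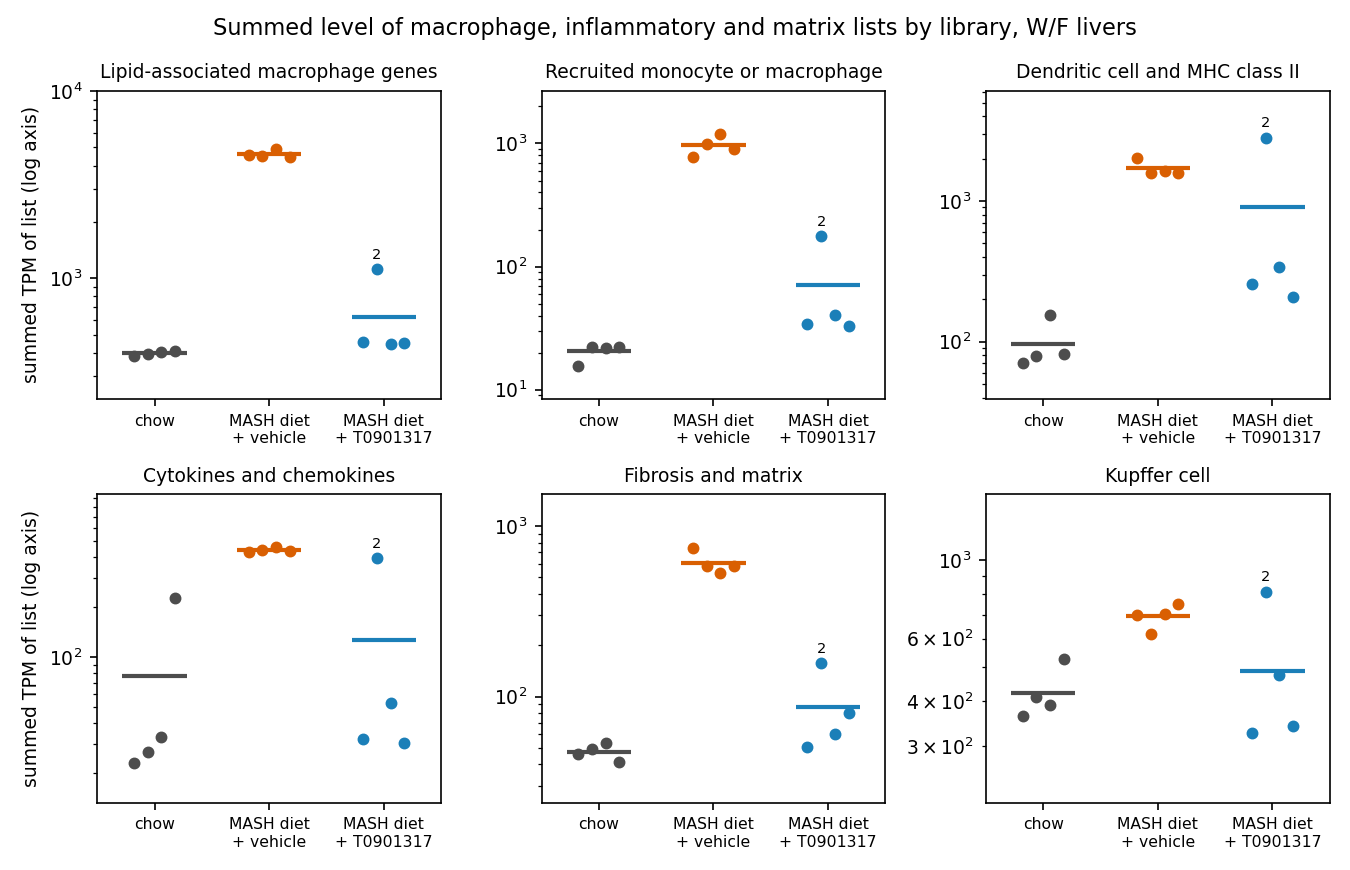
Summed TPM of 6 macrophage, inflammatory and matrix gene lists in each W/F library (log axes), for chow, vehicle and T0901317 livers, each point a library and each bar a group mean of 4. Treated replicate 2, marked 2, has the highest treated sum of the lipid-associated macrophage list, with 456, 1118, 449 and 451 TPM in treated replicates 1 to 4.

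Markers of cell types are given beside these genes. The list of recruited monocyte or macrophage markers is not independent of the lists of macrophage and chemokine genes, as 8 of its 10 genes also stand in another list. Of the 9 tested, 7 rose and 0 fell, 3 without treated replicate 2, with sums of 15.6 to 22.3 TPM in chow, 34, 177, 40.8 and 32.8 TPM in treated replicates 1 to 4 and 782 to 1204 TPM in vehicle livers. Of 11 markers of Kupffer cells, the resident liver macrophages, 4 rose and 2 fell (median 0.67), and 1 rose and 2 fell without treated replicate 2 (median 0.39). The rises were also 1 without treated replicate 3 or chow replicate 1, 2 without chow replicate 2 and 7 without treated replicate 4. Sums were 364 to 527 TPM in chow and 326, 813, 474 and 340.1 TPM in treated livers. The 2 directions were seen in single genes: Cd5l, an inhibitor of apoptosis in macrophages, rose from 15.2, 21.4, 33.7 and 46.6 TPM to 57.8, 367, 86.9 and 44.9 TPM (1.8 ± 0.38, SE; limma adjusted p = 0.000646), and Cd163, the haemoglobin scavenger receptor, fell from 2.46, 3.26, 4.52 and 7.98 TPM to 1.94, 1.36, 2.72 and 1.15 TPM (−0.93 ± 0.19, SE; limma adjusted p = 0.000329). Both overlapped slightly with chow, Cd5l in treated replicate 4 and Cd163 in treated replicate 3. Clec4f, the most specific Kupffer cell marker of the list, differed by 0.68, limma adjusted p = 0.0578, with overlap. Of 7 genes of dendritic cells and MHC class II, 5 rose (median 2.19), 4 without replicate 2 (median 1.32), with sums of 70.3 to 154 TPM in chow, 258, 2819.5, 339 and 208 TPM in treated livers and 1578 to 2017 TPM in vehicle livers. H2-Eb1, an MHC class II chain, rose from 15.1, 18.4, 33.6 and 16.3 TPM to 68.3, 666, 79.6 and 51.4 TPM (2.51 ± 0.54, SE; limma adjusted p = 0.000772; 1.67 without treated replicate 2, limma adjusted p = 0.00497). Its companion Cd74, the invariant chain, rose from 33.1, 35.4, 73.0 and 40 TPM to 113, 1372, 162 and 98.2 TPM (2.35 ± 0.55, SE; limma adjusted p = 0.00164). For both genes each treated library was above each chow library, and replicate 2 was above the vehicle means of 368 ± 63.7 TPM (SD, n = 4) and 829 ± 99.1 TPM (SD, n = 4). Sums of T or NK cell markers were 3.00 to 5.13 TPM in chow and 4.85, 37.1, 7.08 and 6.81 TPM in treated replicates 1 to 4, and those of neutrophil markers 2.02 to 11.4 and 7.39, 28, 10.6 and 9.03 TPM, with Ly6g listed at 0 in all 8 libraries. Their part in the results on inflammatory and macrophage genes was not tested.

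Most calls among cytokine and chemokine genes rested on treated replicate 2. Of 18 tested, 7 rose and 0 fell (median 0.67), but only 1 rose without that library (median 0.14) and 4 without chow replicate 1 or 2, and Il6 was listed at 0. Sums were 23.0, 26.8, 33.0 and 226 TPM in chow replicates 1 to 4, 32.0, 392, 53.1 and 30.4 TPM in treated replicates 1 to 4 and 429.8 to 458 TPM in vehicle livers, so chow replicate 4 was also far above the other chow libraries. Cxcl9, a chemokine induced by interferon-gamma, was at 1.51, 2.70, 8.76 and 3.01 TPM in chow and 4.28, 114, 10.9 and 3.94 TPM in treated livers (1.65 ± 0.64, SE; limma adjusted p = 0.0498; 0.63 without treated replicate 2, limma adjusted p = 0.39). Vcam1, an adhesion molecule, was the member that passed with and without the library (1.24, limma adjusted p = 0.00249; 0.70 without treated replicate 2, limma adjusted p = 0.0112). Ubd, a ubiquitin-like protein induced by inflammatory cytokines, was at 1.8, 1.14, 2.24 and 1.75 TPM in chow and 5.89, 251, 9.07 and 4.49 TPM in treated livers (2.70 ± 0.63, SE; limma adjusted p = 0.00157), and its vehicle mean was 284 ± 40.3 TPM (SD, n = 4). The other 3 treated libraries had at most 9.07 TPM of Ubd, still above every chow library.

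A minority of matrix genes rose. Of 19 fibrosis genes, 6 rose, 0 fell and 13 did not pass (median 0.37, against 11.0% higher over all genes), and 9 rose after rescaling (19.9% over all genes). Without treated replicate 2 the median was 0.18 and 2 rose (6.84% over all genes), and 2 rose without chow replicate 4, whereas all 19 were higher in vehicle livers (median 2.58). Sums were 41.3 to 53.6 TPM in chow, 50.4, 157, 60.6 and 80.3 TPM in treated livers and 528 to 741 TPM in vehicle livers. Col1a1, the main fibrillar collagen chain, was at 3.89, 4.53, 3.99 and 4.24 TPM in chow and 6.36, 27.5, 5.66 and 9.20 TPM in treated livers (1.08 ± 0.39, SE; limma adjusted p = 0.0361; 0.62 without treated replicate 2, limma adjusted p = 0.234). Its vehicle mean was 126 ± 41.2 TPM (SD, n = 4). Of 11 stellate cell or fibroblast markers, 6 rose and 0 fell, 4 without replicate 2, with sums of 166 to 226 TPM in chow and 308, 406, 316 and 349 TPM in treated livers. Dcn, a small matrix proteoglycan of these cells, rose from 94.2, 78.5, 88.4 and 71.5 TPM to 135, 199.8, 134 and 151 TPM (0.88 ± 0.18, SE; limma adjusted p = 0.000543; 0.75 without treated replicate 2, limma adjusted p = 0.00419), with each treated library above chow.

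The remaining lists held few calls or calls in both directions. None of the 21 cell cycle genes passed limma's test as deposited (0 higher and 0 lower, median −0.08), while 2, both lower, had an unadjusted p under 0.05. With voom on the recovered reads none passed either, whereas after rescaling 0 were higher and 1 was lower. Leaving out treated replicate 2 gave 0 higher and 2 lower, leaving out chow replicate 1 gave 1 higher, and leaving out chow replicate 3 gave 1 lower, and in vehicle livers 20 were higher. Of 18 acute phase genes, 1 rose and 1 fell. Their sums were 11893, 12201, 9637 and 55416 TPM in chow replicates 1 to 4, 10997, 39055, 12709 and 11045 TPM in treated replicates 1 to 4 and 43297 to 53875 TPM in vehicle livers, so chow replicate 4 and treated replicate 2 were far above the others of their groups. With treated replicate 2 left out, 1 rose and 4 fell, and without chow replicate 4, 3 rose and 0 fell. The count lower was 0 without treated replicate 1, 3 without chow replicate 1 and 2 without chow replicate 2 or 3. Orm3, an orosomucoid (chr4:63356162-63359511, plus strand), was the one that rose, from 0.620, 1.22, 0.750 and 11.9 TPM, with chow replicate 4 the highest, to 94.1, 256, 54.8 and 36.5 TPM (4.82 ± 0.49, SE; limma adjusted p = 1.86e-08). Lcn2, an iron-scavenging protein, was high in chow replicate 4 and treated replicate 2 alone, with 3.93, 4.31, 4.68 and 418 TPM in chow and 10.5, 471, 12.5 and 5.62 TPM in treated livers (0.74 ± 1.05, SE; limma adjusted p = 0.64). Of 16 genes of the unfolded protein and integrated stress responses, 2 rose, Gdf15 (1.73) and Chac1 (1.59), and 5 fell, such as Asns (−1.43) and Sdf2l1 (−1.26). The count lower was 2 without treated replicate 1, treated replicate 2 or chow replicate 4 and 3 without chow replicate 3, and 1 rose without chow replicate 3. Of 12 Nrf2 antioxidant genes 4 rose and 2 fell, with 1 and 1 without treated replicate 2. Without chow replicate 1, 2 rose, and the count lower was 0 without treated replicate 1 and 1 without chow replicate 2 or 3. Of 18 clock genes 0 rose and 3 fell by limma's test, a share no larger than over all genes, with Clock (−0.99) among them; 2 rose without chow replicate 1, and 1 with voom or after rescaling. Of 6 fetal or ectopic genes 1 rose, Ly6d, a surface protein that is barely expressed in normal liver, from 0.322, 1.11, 2.34 and 2.19 TPM to 4.16, 32.1, 3.06 and 2.81 TPM (1.62 ± 0.51, SE; limma adjusted p = 0.0155), and it did not pass without treated replicate 2 (limma adjusted p = 0.133) or without chow replicate 1. Its vehicle mean was 597 ± 257 TPM (SD, n = 4). Among the other marker lists, 2 of 9 hepatocyte, 2 of 9 cholangiocyte, 2 of 10 endothelial, 1 of 12 neutrophil, 1 of 9 T or NK cell and 2 of 6 B or plasma cell genes rose and 0 fell. Without treated replicate 2, 0 cholangiocyte, 1 endothelial, 0 neutrophil and 0 B or plasma cell genes rose, with 2 hepatocyte and 1 T or NK cell gene as before. These small counts also moved when other single libraries were left out. After rescaling, 2 hepatocyte, 4 cholangiocyte, 2 endothelial, 2 neutrophil, 4 T or NK cell and 2 B or plasma cell genes rose. Of the remaining lists, 2 of 5 erythroid and 1 of 2 acinar genes fell, and the 1 adipocyte gene tested did not pass, with Adipoq, Lep and Plin1 listed at 0.

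Other large changes concerned genes outside these lists. Cfd, the complement factor adipsin (chr10:79890853-79892655, plus strand), was at 1.17, 12.1, 4.39 and 2.02 TPM in chow, 193, 58.0, 115 and 219 TPM in treated and 0.510 to 1.78 TPM in vehicle livers (4.82 ± 0.57, SE; limma adjusted p = 2.89e-07). Each treated library was above each chow library. Adam11, a gene of the disintegrin family (chr11:102761439-102780262, plus strand), rose from 0.381, 0.291, 0.715 and 0.555 TPM to 23.3, 35.6, 35.4 and 41.2 TPM (4.53 ± 0.24, SE; limma adjusted p = 4.99e-15), and was at 19.9 to 26.6 TPM in vehicle livers. Gadd45b, a stress-induced growth regulator, rose from 2.46, 3.17, 4.85 and 3.13 TPM to 37.9, 75.7, 35.6 and 41.1 TPM (3.42 ± 0.23, SE; limma adjusted p = 9.91e-13), with 46.9 to 53.5 TPM in vehicle livers. The long non-coding gene 1700080G11Rik rose from 1.92, 4.87, 3.99 and 1.07 TPM to 43.8, 32.7, 39.0 and 37.7 TPM (3.42 ± 0.32, SE; limma adjusted p = 3.21e-09). The vehicle libraries were thus far above the chow range for Adam11 and Gadd45b, and at its low end for Cfd.

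How near diet-responsive genes lay to chow was described with a list chosen by the difference between F/F vehicle and F/F chow livers. It holds genes that passed limma's test and differed at least 2-fold and without overlap between those 2 groups. The fit behind that test pooled its spread over all 36 libraries, the W/F ones included. The 2082 genes that were higher on the diet in F/F mice had a median log2 difference of 0.39 in treated W/F livers, against −0.0051 over all genes. Of them, 684 (32.9%, against 11.0% of all genes) were higher and 10 lower than W/F chow. The interval lay within 2-fold on the log2(TPM + 1) scale for 1303 of them (62.6%), a smaller share than the 78.4% of all genes. In W/F vehicle livers the median was 1.67, against 0.39 over all genes, and 1980 (95.1%, against 52.4% of all genes) were higher. By library, their median distance above the chow mean was 0.14, 0.84, 0.25 and 0.25 in treated replicates 1 to 4 and 1.57 to 1.75 in the vehicle libraries. Without treated replicate 2 the treated median was 0.22 and 352 (16.9%, against 6.84% of all genes) were higher. After rescaling it was 0.47 and 1016 (48.8%, against 19.9% of all genes). The 50 genes with the largest change in F/F mice, in either direction, were taken from the higher and lower lists together. Of these, Ubd, Lgals3, Gpnmb, the immunoglobulin light chain gene Igkc and the lymphotoxin gene Ltb were furthest above chow in treated W/F livers. Igkc, for example, was at 6.08, 5.32, 4.79 and 2.19 TPM in chow and 14.0, 14.7, 14.4 and 12.7 TPM in treated livers (1.48 ± 0.51, SE; limma adjusted p = 0.0275). The 378 genes that were lower on the diet in F/F mice had a median of −0.65 in treated W/F livers and −1.26 in vehicle livers. Of them, 196 (51.9%) and 307 (81.2%) were lower than chow, against 18.7% and 8.53% of all genes. After rescaling the treated median was −0.58 and 176 (46.6%, against 17.4% of all genes) were lower. With the lists kept, the lower list thus lay further from chow in both scalings. With both lists chosen anew from the rescaled fit, the treated medians were 0.59 for the higher and −0.48 for the lower list. The no-overlap condition of that choice still used deposited values. Which list lay further from chow therefore depends on how the lists are chosen. Idi1, Cyp51, Nsdhl, Mup7 and Selenbp2 were furthest below chow in treated W/F livers among the same 50 genes.

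The difference between treated and chow livers was itself tested against that in W/W mice, in which both alleles are unmutated. It differed for 422 genes (2.54%), 332 lower (2.00%) and 90 higher (0.541%) in W/F than in W/W. The cholesterol list held 23 of the lower ones. Sqle fell from 53.8 to 87.1 TPM to 27.8 to 35.4 TPM in W/W mice, a log2 difference of −1.11, and W/F minus W/W was −4.57 ± 0.24 (SE; limma adjusted p = 2.56e-14). Idi1 fell from 75.5 to 124 TPM to 11.7 to 20.3 TPM in W/W mice (−2.36; W/F minus W/W −4.24 ± 0.32, SE; limma adjusted p = 2.03e-10). W/F livers thus started from higher chow levels of both genes and ended lower. Fdps, Gm22935 and Mvd were the others among the 5 lowest, at −4.51, −4.31 and −4.15. Lipogenic genes had lower differences in W/F as well: 14 of 23 fatty acid and triglyceride genes had a lower difference and 1 a higher one. Fasn differed between the genotypes by −2.67 ± 0.59 (SE; limma adjusted p = 0.00693), with a W/W log2 difference of 2.55. The exception was Scd1 (2.99 ± 0.42, SE; limma adjusted p = 2.02e-05), which went from 1423 to 5447 TPM to 21335 to 22177 TPM in W/W mice, so that W/W livers were above W/F livers both on chow and under treatment, and the W/F rise began from a far lower chow level. Serpina1e had the largest difference upward (5.27 ± 0.81, SE; limma adjusted p = 8.86e-05), with only 58.0 to 98.5 TPM left in treated W/W livers. The others at that end were Gm23445 (3.17), a small RNA gene within Tmem219, the methyltransferase Nnmt (2.44) and the retinol dehydrogenase gene Rdh16f2 (2.31).

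Against F/F mice, in which both alleles are mutated, the treated-against-chow difference was not the same for 168 genes (1.01%), 113 lower (0.679%) and 55 higher (0.331%) in W/F, and for 501 (3.01%) without W/F treated replicate 2. After rescaling it was 165 genes, 75 lower and 90 higher, so the direction of these calls depends on the scaling; the median over all genes was −0.16 as deposited and −0.017 after rescaling. The cholesterol list held 13 of the lower ones, 10 after rescaling, and its median difference in treated F/F livers was −2.09. Sqle differed by −1.86 ± 0.24 (SE; limma adjusted p = 9.28e-05) and Mvd by −2.65 ± 0.35 (SE; limma adjusted p = 9.28e-05). The 5 lowest were the sulfotransferase Sult2a2 (−3.92), Cd5l (−3.65), the methyltransferase Inmt (−3.02), Gm15998, antisense to Efna3 (−2.88), and Csad (−2.69), which makes the taurine precursor. Cd5l went from 1.39 to 2.22 TPM to 95.7 to 168 TPM in F/F mice (−3.65 ± 0.54, SE; limma adjusted p = 0.000277), a larger rise than in W/F mice. Cfd had the largest difference upward (5.65 ± 0.80, SE; limma adjusted p = 0.000162), and was at 2.00 to 3.30 TPM on chow and 0.531 to 1.40 TPM under treatment in F/F mice. Scd1 was also higher (2.49 ± 0.42, SE; limma adjusted p = 0.00122), with 50.3 to 93.5 TPM on chow and 491 to 697 TPM under treatment in F/F mice. The remaining higher ones were DQ267102, a small nucleolar RNA within Rian (2.71), Sult2a8 (2.52) and Cyp4a12b (2.31). Sult2a2 and Cyp4a12b share 62.1% and 49.5% of their sequence with other genes, and the strand of counting is not given in the sources used here, so these and the antisense gene are uncertain.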

How the data were processed

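The deposited table gave TPM made by the authors for 36 libraries. Each column sums to 1000000. Trimmomatic 0.36, STAR 2.5.2b, featureCounts and Subread 1.5.2 and the builds GRCm38 and mm10 are named per the submitters' processing notes, without roles or order; strand handling is not given in the sources used here. The test covered genes reaching 1 TPM in 4 or more libraries. The limma package (3.58.1, R 4.3.3) modelled log2(TPM + 1) (moderated variances with a trend, 9 group means over all 36 libraries, two-sided, Benjamini-Hochberg over 16638 genes). Log2 differences are on the log2(TPM + 1) scale, which understates changes of low genes. Single library values used exact permutation tests. Differences between genotypes were contrasts of contrasts.

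Whole reads were recovered from low TPM values (0.02 to 0.4 TPM) times exon length: 93.7% to 95.7% of values under 20 reads lay within 0.1 of a whole number, against 20% by chance, which gave each depth. Rescaling divided each library by its median ratio to the gene-wise geometric means of 13950 genes. Alternatives were an offset of 0.1, a minimum of 5 TPM or none, rescaling, the replicate block, array quality weights, only the groups compared, recovered reads with voom and each library left out. The fit was checked on simulated data. Promoters are RefSeq windows and gene positions GENCODE M21, both GRCm38. Sequence shared with other genes is the share of 50-base words found in another gene's transcripts.

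The comparison, the members and the 20 process and 13 marker lists were chosen with earlier results of these data known, so list counts are descriptions. Genes were named by size: adjusted p under 0.05, at least 5 TPM in the higher group, no overlap and the same direction after rescaling, the 10 highest and 10 lowest. Between genotypes, and among the 50 F/F diet genes with the largest change, the 5 at each end were named. Examples of a list were taken first from its largest called changes, and Gpnmb, Col1a1, Cyp7a1, Sqle, Fasn, both LXR genes and the best-known LXR targets were always named. Some genes of the lists are counted but not reported here by name.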

Additional observations from a re-analysis of the deposited data

Results flagged for a closer look

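In 28 of 254 groups of 4 libraries the highest or lowest value stood apart from the others by Dixon's 95% criterion, which flags about 1 in 20 groups by chance. Treated replicate 2 was the highest of the treated W/F libraries for 14 of them: Cbr3 15 TPM, Cd63 173 TPM, Cxcl10 65.3 TPM, Fcer1g 83.7 TPM, Gpnmb 37.7 TPM, H2-Eb1 666 TPM, Lcn2 471 TPM, Lgals3 81.9 TPM, Ly6d 32.1 TPM, Mmp12 7.97 TPM, Mvd 6.16 TPM, Trem2 5.89 TPM, Ubd 251 TPM and Vcam1 18.5 TPM. Over all 16638 genes it was set apart as the highest for 762 genes. By the same criterion, 1 library stood apart for 10.3% of all genes in the treated group and 7.28% in the chow group. The 28 of 254 groups are to be read beside these shares, so they are not particular to the genes named. Treated replicate 1 was the lowest for Gpam, at 8.38 TPM.

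In the chow libraries, replicate 1 was the lowest for Idi1 at 180.5 TPM. Replicate 2 was the highest for Cish at 11.0 TPM, DQ267102 at 1.64 TPM, Mir6921 at 2.95 TPM and Mylip at 6.78 TPM, and replicate 3 for Gsta1 at 5.82 TPM. Replicate 4 was the highest for Lcn2 at 418 TPM and Orm3 at 11.9 TPM, and the lowest for Col1a2 at 2.23 TPM, Inmt at 171 TPM, Lpcat3 at 38.7 TPM, Rdh16f2 at 170.0 TPM and the mitochondrial share of TPM at 9.40%.

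The difference between treated and chow livers differed between W/F and W/W mice, by limma's test of that difference at an adjusted p under 0.05, for 31 of the genes named. Cholesterol genes had lower W/F differences on the log2 scale: Sqle −4.57, Fdps −4.51, Gm22935 within Fdps −4.31, Idi1 −4.24, Mvd −4.15, Nsdhl −3.82, Cyp51 −3.56, Hmgcs1 −3.37, Msmo1 −3.36, Insig1 −2.31 and Sc5d −1.47. Fatty acid and lipid-droplet genes did so too: Pnpla3 −3.29, Fasn −2.67, Scd2 −2.56, Acss2 −2.54, Acly −2.49, Gpam −2.27, Acaca −2.15, Acacb −2.11 and Cidec −1.8. So did Ly6d −3.72, Cyp2a4 −3.07 and Cd163 −1.22. Higher W/F differences were found for Serpina1e at 5.27, Gm23445 at 3.17, Scd1 at 2.99, Nnmt at 2.44, Rdh16f2 at 2.31, Gsta2 at 1.87, Cyp2c70 at 1.44 and Adam11 at 1.24.

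Against F/F mice the same test passed for 17 of the genes named. Lower in W/F were Sult2a2 −3.92, Cd5l −3.65, Inmt −3.02, Gm15998 −2.88, Csad −2.69, Mvd −2.65, Sqle −1.86, Hmgcs1 −1.79, Insig1 −1.70, Msmo1 −1.38 and Sc5d −0.85. Higher were Cfd at 5.65, DQ267102 at 2.71, Sult2a8 at 2.52, Scd1 at 2.49, Cyp4a12b at 2.31 and Adam11 at 1.37.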

How the results depend on the processing

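Of the 103 named genes called between treated and chow W/F livers, none changed direction under the alternatives. These were the other offset, filters, rescaling, block, weights, fewer groups, voom and 1 library left out. For genes named by size, no overlap and the same direction after rescaling were conditions of the choice. A change of direction after rescaling or with 1 library left out was thus excluded beforehand for those genes. Among the 103, calls were lost for 32 with only the groups compared in the fit, 21 without treated replicate 2 and 13 without the low-value filter. The 4939 calls became 3234 with only the groups compared. The 1833 higher genes became 3303 after rescaling, 1041 with only the groups compared, and, chosen after seeing the data, 3027 with voom and median-ratio library sizes and 2883 after rescaling without treated replicate 2. The 761 genes changed at least 2-fold became 1643 with an offset of 0.1, 1570 with voom, and 1684 with voom and those library sizes. The difference from W/W, 422 genes, became 640 after rescaling and 848 with array weights. That from F/F, 168 genes, became 104 with an offset of 0.1, 497 with array weights and 59 with only the groups compared.

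Leaving out 1 library at a time gave 4118 to 4826 called genes, 1138 (without treated replicate 2) to 2027 higher, 2305 to 3084 lower and 608 to 897 changed at least 2-fold. The difference from W/W ranged from 336 to 428 genes. That from F/F ranged from 81 genes without F/F treated replicate 1 to 501 without W/F treated replicate 2; it was 90 without W/F treated replicate 1, 111 without W/F chow replicate 2, 100 without F/F treated replicate 2, 321 without F/F treated replicate 3 and 102 without F/F chow replicate 2. The medians of the diet genes ranged from 0.22 to 0.47 for the higher list and from −0.74 to −0.60 for the lower list. The difference in the share of the 100 most abundant genes ranged from −1.30 to 0.97 percentage points and that in genes at 1 TPM or more from −214 to 155. Among genes not called, Fasn ranged from −0.30 to 0.022, Lcn2 from −0.65 to 2.32 and Nr1h3 from −0.057 to 0.088. The cause of these moves was not tested, except that fits of fewer libraries have fewer degrees of freedom.

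With the replicate number as a block, 5031 genes were called. Deviations of treated and chow libraries with the same number correlated at 0.082, −0.117, 0.044 and −0.117 across genes, and the chow mice were an independent cohort, so the numbers were not taken to pair the livers.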
